A study of Mus musculus with 2 samples.

Results

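The mitochondrial ribosome proteins encoded in the mouse nucleus were followed in regulatory T cells (Tregs) that lacked or retained Hopx, a homeodomain protein that acts on transcription through partner proteins and has no DNA-binding activity of its own. Members were the genes whose platform symbol begins with Mrpl or Mrps followed by a digit and that were read by at least 1 probe set with a single symbol. There were 76 such genes among 18193 measured genes, 47 of the large subunit (Mrpl) and 29 of the small subunit (Mrps), read by 156 of the 34945 single-symbol probe sets, and no pseudogene symbol fell under the rule. Mrpl30 and Mrpl53 were read by no probe set of their own and are not among the 76.

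One group was Hopx-/- and the other Hopx-sufficient. In both, the cells were Tregs induced in vivo through dendritic cells and sorted for CD25 and Foxp3, and the series title places them after immunization. Each genotype was hybridised to 1 array, so the values describe 2 arrays, carry no replicate error and were put to no test. Mouse age, the antigen, the part of Hopx that was removed and the number of animals per array are not given in the sources used here. The sorted population was checked on T cell markers, of which 6 of 8 measured were higher on the Hopx-/- array (median 0.22), with Cd3e at 0.22. Of the sort markers, Foxp3 stood at 0.28 and Il2ra, which encodes CD25, at -0.06, and Cd4 stood at -0.01. The table holds no signal levels, so whether a marker was present or absent could not be read from it.

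Mitochondria carry their own ribosomes, which translate the few messages of the mitochondrial genome, all of them for subunits of the respiratory chain and the ATP synthase. The proteins of this ribosome are encoded in the nucleus, made in the cytosol and imported, while its RNAs come from the mitochondrion. T cells enlarge and remodel their mitochondria when they are activated, and the protein synthesis inside mitochondria is known to be needed for their respiration.

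All differences below are Hopx-/- minus Hopx-sufficient on the log2 scale, taken as the mean over the probe sets of a gene and centred on the median of all single-symbol probe sets. The genes of the mitochondrial ribosome were lower on the Hopx-/- array almost throughout: 69 of 76 lay below 0, where 49.9% of all genes did. Their median was -0.23 (SD between members 0.17), against 0.0008 for all genes (SD 0.21). A line of size was drawn at a signal at least 20% lower, a log2 difference of -0.32. It was passed by 21 of the 76, or 27.6%, against a background of 6.93% of all genes, and no member was at least 25% higher, against a background of 4.09%. Of the 21, 17 were among the 34 members read by 1 probe set, while 8.53% of all genes with 1 probe set passed the line. The other 4 were among the 42 members with 2 or more probe sets, or 9.52%, against 5.31% of all such genes. The share past the line was therefore much closer to its background in members with more probe sets. Differences were small in size, since 2 members were at least 1.5-fold lower (background 1.31%) and none was 2-fold lower (background 0.143%). At a line of 1.1-fold, 56 were lower, against a background of 22.8%. The members closest to the line were Mrpl35 and Mrps27 just inside it, both at -0.32 and 80.0% and 79.9% of the Hopx-sufficient signal, and Mrps25 and Mrpl42 just outside it at 80.02% and 80.6%.

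**Figure D1:**
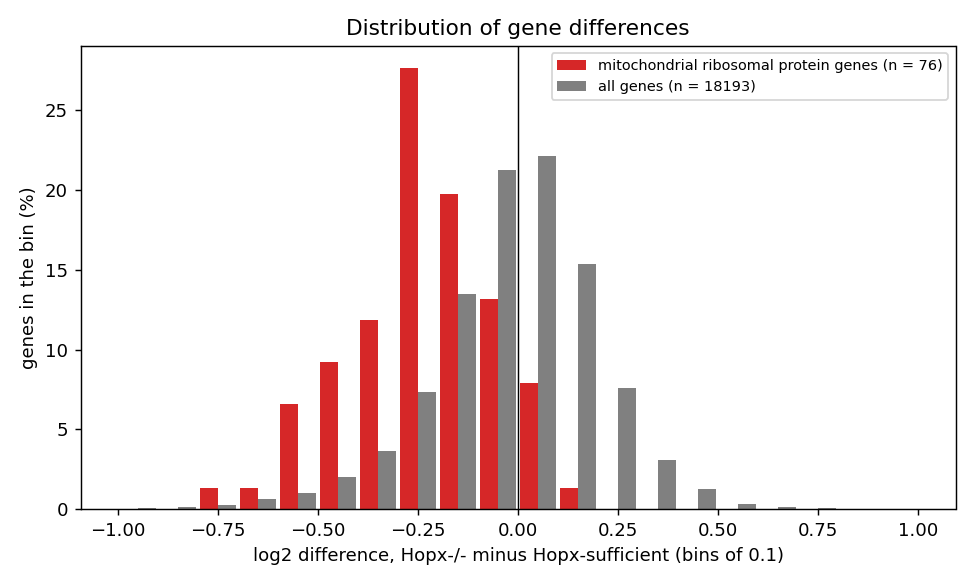
Percentage of genes in bins of 0.1 of the log2 difference, Hopx-/- minus Hopx-sufficient, for the 76 mitochondrial ribosomal protein genes (red) and for all 18193 genes (grey). The fullest red bin, with 27.6% of the members, runs from -0.3 to -0.2, while the grey bars peak on either side of 0; 28 genes lie outside the plotted range.

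Hopx itself, the check of the labels, was 35.6-fold lower on the Hopx-/- array. Bacterial and phage spike-ins added for hybridization control, read by 18 probe sets, had a median of -0.12 and lay between -0.22 and 0.0074. Below the lowest of them lay 40 members (52.6%), against 13.0% of all genes. Members and spike-ins both had a median below 0 (-0.23 and -0.12), and no alternative centred the differences on the spike-ins. Macrophage markers were higher on the Hopx-/- array in 8 of 9 cases (median 0.36, from -0.38 for Lyz2 to 0.89 for Mrc1), all 5 measured B cell markers were lower (median -0.07, from -0.41 to -0.01), 3 of 4 CD8 T and NK cell markers were lower (median -0.18, from -0.42 to 0.0068) and 4 of 5 dendritic cell markers were lower (median -0.05, from -0.20 to 0.27). The part of these in the difference of the ribosome genes was not tested. In bulk RNA, fewer cells of a type and less RNA per cell cannot be told apart.

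Promoter windows are shown first because factors known to drive nuclear genes of mitochondria bind recognisable letters there. The part of such factors in the differences was not tested. RefSeq windows of 300 bases (250 before and 50 after the annotated start, build GRCm38.p6) matched 67 of the 76 members by gene ID. Capitals mark GCATGCG (the core of the NRF1 site), CCGGAAG (the ETS site that GABP can use), AAGATGG (the YY1 site) or CACGTG (the E-box that MYC and USF can use), on either strand, and NRF1 letters on opposite strands may overlap. Shown are, among members with a window, the 2 lowest with an NRF1 or ETS match, the 2 lowest with a YY1 match and the 2 highest with an NRF1 or ETS match.
Mrps18b, chr17:35916391-35916690, minus strand: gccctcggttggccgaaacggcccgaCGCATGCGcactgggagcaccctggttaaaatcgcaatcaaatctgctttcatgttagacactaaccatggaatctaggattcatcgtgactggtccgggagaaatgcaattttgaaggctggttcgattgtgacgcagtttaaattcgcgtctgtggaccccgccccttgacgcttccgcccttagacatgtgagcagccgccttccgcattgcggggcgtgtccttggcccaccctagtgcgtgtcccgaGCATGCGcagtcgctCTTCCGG
Mrps22, chr9:98601630-98601929, minus strand: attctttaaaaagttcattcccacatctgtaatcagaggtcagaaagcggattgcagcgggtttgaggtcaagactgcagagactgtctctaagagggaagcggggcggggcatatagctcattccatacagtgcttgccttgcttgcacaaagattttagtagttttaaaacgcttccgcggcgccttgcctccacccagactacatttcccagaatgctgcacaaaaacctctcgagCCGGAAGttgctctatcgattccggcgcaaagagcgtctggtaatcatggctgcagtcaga
Mrps18a, chr17:46110754-46111053, plus strand: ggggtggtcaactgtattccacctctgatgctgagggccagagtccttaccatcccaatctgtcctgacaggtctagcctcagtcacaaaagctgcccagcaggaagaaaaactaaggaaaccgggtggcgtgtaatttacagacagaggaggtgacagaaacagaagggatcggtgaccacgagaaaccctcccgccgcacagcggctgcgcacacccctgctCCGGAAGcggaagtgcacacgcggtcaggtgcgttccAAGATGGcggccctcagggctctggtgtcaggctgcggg
Mrps7, chr11:115603890-115604189, plus strand: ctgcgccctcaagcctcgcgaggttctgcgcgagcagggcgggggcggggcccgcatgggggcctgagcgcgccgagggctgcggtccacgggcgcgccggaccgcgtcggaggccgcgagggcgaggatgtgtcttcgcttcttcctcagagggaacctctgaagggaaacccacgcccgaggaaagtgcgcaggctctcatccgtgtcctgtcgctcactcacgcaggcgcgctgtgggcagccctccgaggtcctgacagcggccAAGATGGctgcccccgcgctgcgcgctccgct
Mrpl10, chr11:97041332-97041631, plus strand: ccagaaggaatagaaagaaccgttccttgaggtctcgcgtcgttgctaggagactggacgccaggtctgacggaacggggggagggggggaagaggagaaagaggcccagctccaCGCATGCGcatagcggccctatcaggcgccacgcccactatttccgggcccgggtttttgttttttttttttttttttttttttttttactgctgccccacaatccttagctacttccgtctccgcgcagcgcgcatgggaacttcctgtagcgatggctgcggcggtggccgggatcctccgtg
Mrpl33, chr5:31613701-31614000, plus strand: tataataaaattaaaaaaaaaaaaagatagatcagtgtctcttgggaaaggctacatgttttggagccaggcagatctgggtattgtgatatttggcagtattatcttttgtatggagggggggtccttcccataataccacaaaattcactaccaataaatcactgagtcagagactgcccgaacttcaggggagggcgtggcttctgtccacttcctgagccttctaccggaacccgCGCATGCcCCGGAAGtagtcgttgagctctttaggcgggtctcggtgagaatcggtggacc

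Mrps18b, at -0.61, held overlapping NRF1 letters from base -224, a further NRF1 match from base 29 and ETS letters from base 44, counted from the annotated start. Mrpl33, the highest member at 0.13, held the same pair of motifs close to its start, with NRF1 letters from base -11 and ETS letters from base -3. The YY1 letters of Mrps18a and Mrps7 began at bases 12 and 19, just inside the transcript. The windows shown were picked for holding a match, so matches at both ends of the range follow from that choice.

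ETS letters were found in the windows of 25 of 67 members (37.3%), against 15.03% of the measured genes with a window and 8.86% of all 32851 windows. YY1 letters stood in 13 members (19.4%), against 7.55% of measured genes and 6.34% of all windows. NRF1 letters stood in 8 members (11.9%), against 5.87% and 3.58%. The E-box was found in 5 members (7.46%), against 10.3% and 7.15%, and the GC box GGGCGG, which SP1 binds, in 34 (50.7%), against 57.5% and 35.7%. TATAAA was found in 5 (7.46%), against 11.5% and 13.6%. The windows of members held a median of 21 CG dinucleotides, against 16 for measured genes, while median GC content was 58.7% and 58.3%. The ETS, NRF1, E-box and GC box letters all contain CG, and the part of this in the shares was not tested.

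Median differences of members, whose SD is 0.17, were -0.18 with and -0.25 without ETS letters, -0.32 with and -0.20 without YY1 letters, and -0.10 with and -0.24 without NRF1 letters. The 5 members with an E-box, Mrpl20, Mrpl2, Mrpl37, Mrpl36 and Mrps18c, had a median of -0.40, against -0.21 for members without one. Over all measured genes with a match the medians were -0.03 for ETS, -0.0092 for YY1, -0.02 for NRF1 and -0.01 for the E-box. A match says only that the letters are present in the window.

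**Figure D2:**
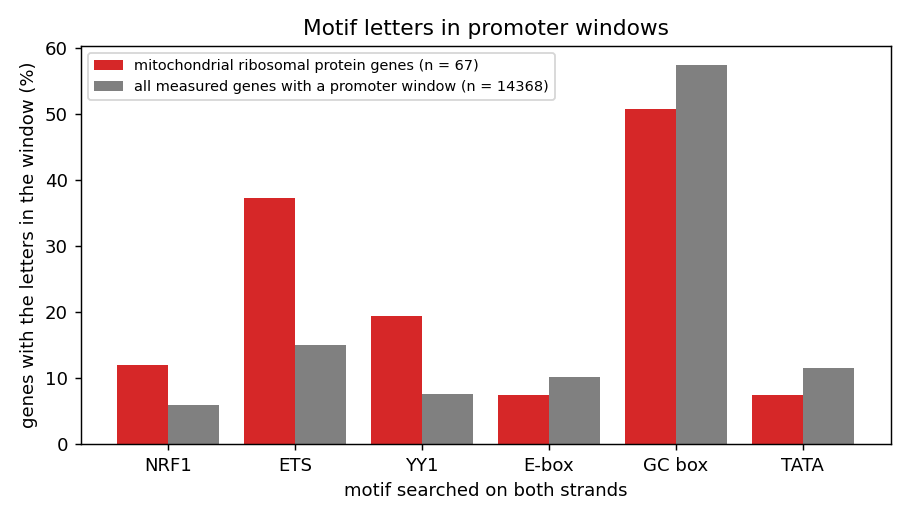
Share of genes, in percent, whose 300-base promoter window holds each motif on either strand, for 67 mitochondrial ribosomal protein genes (red) and for all 14368 measured genes with a window (grey). ETS letters stood in 37.3% of the members and 15.03% of measured genes, and YY1 letters in 19.4% and 7.55%.

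Both subunits showed the same median. Large-subunit genes had a median of -0.23, with 42 of 47 below 0 and 12 (25.5%) at least 20% lower, and ranged from -0.58 to 0.13. Small-subunit genes had a median of -0.23 too, with 27 of 29 below 0 and 9 (31.0%) at least 20% lower, and ranged from -0.76 to 0.01. Over all genes 49.9% were below 0 and 6.93% at least 20% lower, and over all members 90.8% and 27.6%. The counts given below for parts of the ribosome stand beside these same shares, and no part was tested against the rest. The ranges overlapped, and the lowest 4 members were 3 Mrps genes and 1 Mrpl gene.

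**Figure D3:**
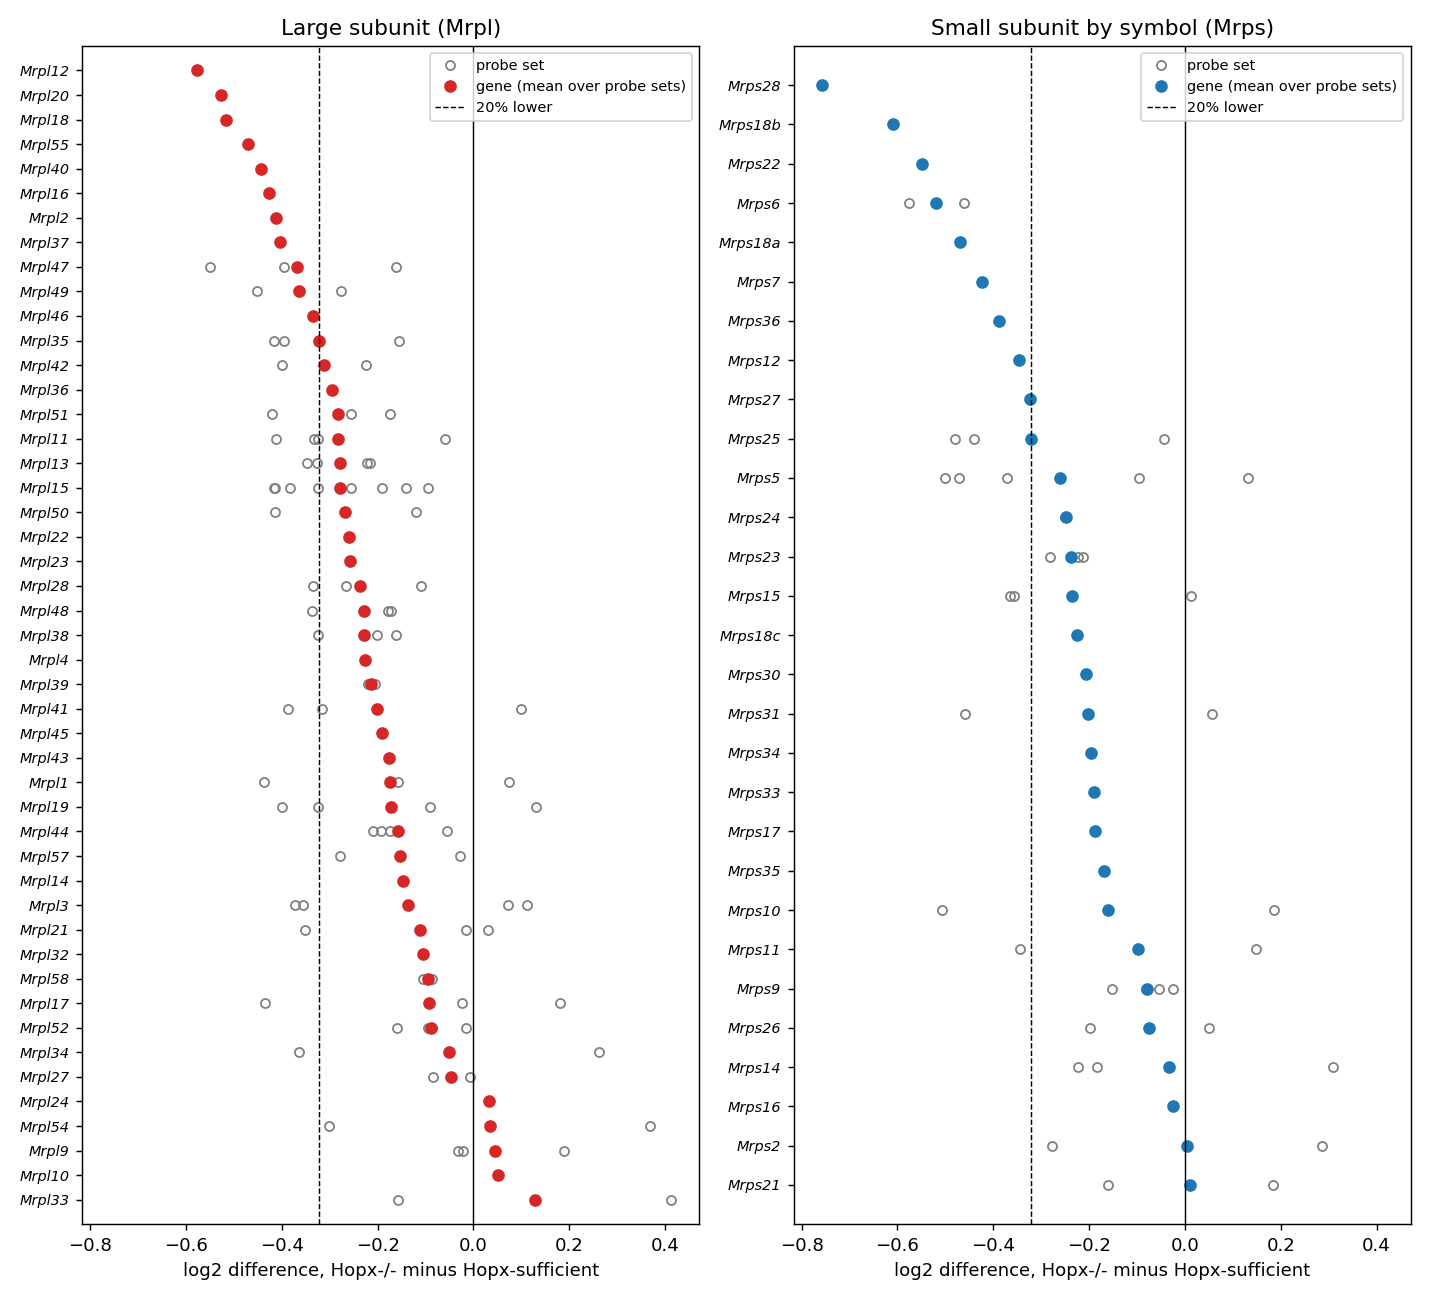
Log2 difference, Hopx-/- minus Hopx-sufficient, of each large-subunit gene (left panel, red) and each small-subunit gene by symbol (right panel, blue). Filled points are gene means, open grey points the single probe sets, and the dashed line marks a signal 20% lower; 42 of 47 and 27 of 29 genes lie left of 0, and the genes with several probe sets show how far these spread.

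Among proteins of the small subunit, Mrps28, a relative of the bacterial protein S1, was the lowest member of all. Its deposited value was -0.38 on the Hopx-/- array and 0.38 on the Hopx-sufficient array, which leaves 59.1% of the Hopx-sufficient signal (1 probe set). Mrps18b, one of the mammalian paralogs of bacterial S18, stood at -0.30 on the Hopx-/- array and 0.30 on the Hopx-sufficient array, or 65.6%. These were the 2 members past 1.5-fold. The columns mirror each other for every probe set because the authors centred each on its mean.

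The other S18 paralogs were lower by less. Mrps18a differed by -0.47 and Mrps18c by -0.23, each with 1 probe set. Mrps6, whose bacterial relative is the binding partner of S18, was lower in both of its probe sets, at -0.58 and -0.46, with a mean of -0.52. It was the member with more than 1 probe set that lay lowest.

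Of the 17 small-subunit genes with a bacterial counterpart 15 were below 0, with a median of -0.23. Mrps7, a rRNA-binding protein of the subunit head, stood at 74.5% of the Hopx-sufficient signal, and Mrps12, whose bacterial relative lines the decoding centre, at 78.6%. Mrps5 was lower by its mean (-0.26), but its 5 probe sets ran from -0.50 to 0.13. Mrps15 (3 probe sets from -0.37 to 0.01) and Mrps9 (4 probe sets from -0.15 to -0.02) had means of -0.24 and -0.08. Mrps14, with 3 probe sets from -0.22 to 0.31, averaged -0.03, and Mrps16 differed by -0.03. Mrps2 and Mrps21 were the 2 Mrps genes not below 0, at 0.0050 and 0.01, each with 1 probe set on either side.

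All 9 small-subunit genes without a bacterial counterpart were below 0 (median -0.20). Mrps22, in which human mutations cause a respiratory chain disease, stood at -0.27 on the Hopx-/- array and 0.27 on the Hopx-sufficient array, or 68.3% of the Hopx-sufficient signal. The 3 probe sets of Mrps23 lay close together, between -0.28 and -0.21, with a mean of -0.24. Those of Mrps25 ran from -0.48 to -0.04 (mean -0.32), and those of Mrps31 gave -0.46 and 0.06.

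Some Mrps symbols do not name proteins of the small subunit. Mrps18a and Mrps30 sit in the large subunit of the mammalian mitochondrial ribosome, and Mrps36 is now known as a subunit of the 2-oxoglutarate dehydrogenase complex. All were lower, Mrps36 at -0.39, Mrps30 at -0.21 and Mrps18a at -0.47. With the subunits drawn by structure the medians were -0.23 for 49 large-subunit genes and -0.21 for 26 small-subunit genes.

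In the large subunit, the stalk that recruits translation factors gave members at opposite ends. Mrpl12, the stalk protein proper, which is also reported to bind the mitochondrial RNA polymerase, stood at -0.29 on the Hopx-/- array and 0.29 on the Hopx-sufficient array, or 67.0% of the Hopx-sufficient signal. Mrpl10, whose bacterial relative anchors that protein to the ribosome, was slightly higher, at 0.05. Mrpl11, at the base of the stalk, had a mean of -0.28 with 4 probe sets from -0.41 to -0.06. Mrpl12 and Mrpl10 were read by 1 probe set each.

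The 6 genes assigned here to the central protuberance of the large subunit were all below 0, with a median of -0.28. Mrpl18, whose bacterial relative holds the small RNA of this region, differed by -0.52, Mrpl40 by -0.44 and Mrpl46 by -0.34. Mrpl48 and Mrpl38 each had 3 probe sets below 0 and means of -0.23. Mrpl58, which can release stalled peptides by hydrolysing peptidyl-tRNA, was the highest of the 6 at -0.10, with probe sets at -0.10 and -0.09.

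At the exit of the peptide tunnel 4 of 5 genes were below 0. Mrpl47 was lowest, with probe sets at -0.55, -0.39 and -0.16 and a mean of -0.37. Mrpl22 and Mrpl23 both differed by -0.26. Mrpl45, which attaches the ribosome to the inner membrane, differed by -0.19, while Mrpl24 stood at 0.03.

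Of 20 other large-subunit genes with a bacterial counterpart 18 were below 0, with a median of -0.17. Mrpl20, whose bacterial relative starts assembly of the subunit, was lowest at -0.53, followed by Mrpl16 (-0.43) and Mrpl2 (-0.41), relatives of proteins near the catalytic centre. The best sampled member was Mrpl15, all 8 of whose probe sets were below 0, from -0.42 to -0.10, with a mean of -0.28. Mrpl13 had the same mean, with 4 probe sets from -0.35 to -0.22. Mrpl35 and Mrpl28 were lower in all 3 of their probe sets. Less settled were Mrpl3 (mean -0.14, 4 probe sets from -0.37 to 0.11), Mrpl19 (mean -0.17, 4 probe sets from -0.40 to 0.13), Mrpl1 (mean -0.17, from -0.44 to 0.07), Mrpl21 (mean -0.11, from -0.35 to 0.03) and Mrpl17 (mean -0.09, from -0.43 to 0.18). Mrpl9 and Mrpl33 were above 0, Mrpl9 at 0.05 with 2 of its 3 probe sets just below 0. Mrpl33 averaged 0.13 from probe sets at -0.16 and 0.41.

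Genes of the large subunit that have no bacterial counterpart and were not assigned to a part above were below 0 in 11 of 12 cases, with a median of -0.21. Mrpl37 differed by -0.40 and Mrpl49 by -0.36, with both probe sets of Mrpl49 below 0. Mrpl51 (3 probe sets from -0.42 to -0.17), Mrpl44, which has the fold of an RNase III (4 probe sets from -0.21 to -0.06), and Mrpl52 (4 probe sets from -0.16 to -0.02) were lower in every probe set. The 3 probe sets of Mrpl41 ran from -0.39 to 0.10. Mrpl54, at 0.03, averaged probe sets at -0.30 and 0.37. Mrpl55, whose origin was not assigned, differed by -0.47. The median was -0.21 for 28 members without a bacterial counterpart and -0.23 for 46 members with one.

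The probe sets of a gene were compared for direction, although all were read on the same 2 arrays and are not replicates of a genotype. Of the 156 probe sets 134 (85.9%) were below 0, while centring sets as many of all probe sets above 0 as below it. In the members 58 of the 156 were at least 20% lower, against a background of 8.5% of all single-symbol probe sets, while 2 were at least 25% higher, against 6.01%. Among the 42 members with 2 or more probe sets, 23 were below 0 in every one (54.8%), against 24.2% of all such genes. Probe sets lay on both sides of 0 in the other 19, and no member was above 0 in all. In 24 members with 3 or more probe sets, 14 were below 0 throughout, against 17.8% of all genes with as many. The probe sets of a member differed from each other with an SD of 0.21, larger than the SD of 0.13 between the means of those 42 members, so the order among them is not resolved by these arrays. The probe sets of 11 members lay more than 0.5 apart, in decreasing order of the mean Mrpl33, Mrpl54, Mrps2, Mrps14, Mrpl34, Mrpl17, Mrps10, Mrpl19, Mrpl1, Mrps31 and Mrps5.

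The lowest members were mostly read once. Of the 10 lowest 9 had a single probe set, and the median was -0.31 over the 34 members with 1 probe set, against -0.19 over the 42 with more. Over all genes those medians were -0.0036 and 0.0022. In members with more probe sets, the lowest probe set of each had a median of -0.35 and the highest a median of -0.02.

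The deposited numbers may keep a trace of the signal in the size of their steps. Single-precision numbers below 8 take finer steps than those above. Whether the values were centred in single precision is not stated. If they were, fine steps mean that the log value before centring was below 8 on at least 1 array or in their mean. Coarse steps do not mean the opposite, because a value below 8 can also fall on a coarse step. Of the members' probe sets 12.2% showed fine steps, against 33.4% of all single-symbol probe sets. The 19 with fine steps had a median difference of -0.05 and the 137 with coarse steps a median of -0.26. For all probe sets the medians were 0.0079 with fine and -0.0075 with coarse steps. Of the 22 member probe sets above 0, 8 had fine steps.

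Genes that act with the mitochondrial ribosome were set beside it. The background for these lists was 49.9% of all genes below 0 and 6.93% at least 20% lower. Of 4 measured ribosome proteins that carry other symbols all were below 0, with a median of -0.29: Gadd45gip1 (-0.37) and Chchd1 (-0.31) were lowest and Dap3 (-0.04) highest. Of 27 assembly factors 22 were below 0 and 5 (18.5%) at least 20% lower, with a median of -0.07. The rRNA methyltransferase gene Mrm3 (-0.49) and Rcc1l (-0.45) were lowest and Mettl17 (0.20) highest.

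Factors of mitochondrial translation were below 0 in 14 of 17 cases, with a median of -0.17. At least 20% lower were 4 of the 17 (23.5%), against 6.93% of all genes. Lrpprc, which stabilises mitochondrial messages, was lowest at -0.53, followed by the elongation factor gene Tsfm at -0.43 in the mean of 2 probe sets below 0. The initiation factor gene Mtif2 was highest at 0.19. Mitochondrial aminoacyl-tRNA synthetases, which charge the tRNAs, were below 0 in 11 of 16 cases, with a median of -0.10. Yars2 (-0.60) and Sars2 (-0.35) were lowest and Pars2 (0.28) highest. Genes of mitochondrial transcription and RNA processing were below 0 in 14 of 20 cases, with a median of -0.08, from Fastkd5 (-0.46) and Fastkd3 (-0.35) to Mterf1a (0.29).

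The import machinery and chaperones of mitochondria were below 0 in 18 of 18 cases, with a median of -0.38. At least 20% lower were 11 of the 18 (61.1%), against 6.93% of all genes. Timm8a1, a carrier of the intermembrane space, was lowest at -0.83 with both probe sets below -0.80, and the chaperonin gene Hspd1 followed at -0.71, while Tomm22 was highest at -0.11. Nuclear genes of oxidative phosphorylation were below 0 in 57 of 70 cases, and their median was -0.12. At least 20% lower were 3 of the 70 (4.29%), a share below the 6.93% of all genes. Ndufb1 (-0.41) and Ndufa5 (-0.40) were lowest and Cox7c (0.27) highest. Proteins of the cytosolic ribosome were below 0 in 26 of 43 cases, with a median of -0.01. At least 20% lower were 3 of the 43 (6.98%), about the share of all genes. Rpl14 (-0.44) and Rps25 (-0.42) were lowest and Rps16 (0.16) highest. No difference between these lists was tested, since each rests on the same 2 arrays.

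**Figure D4:**
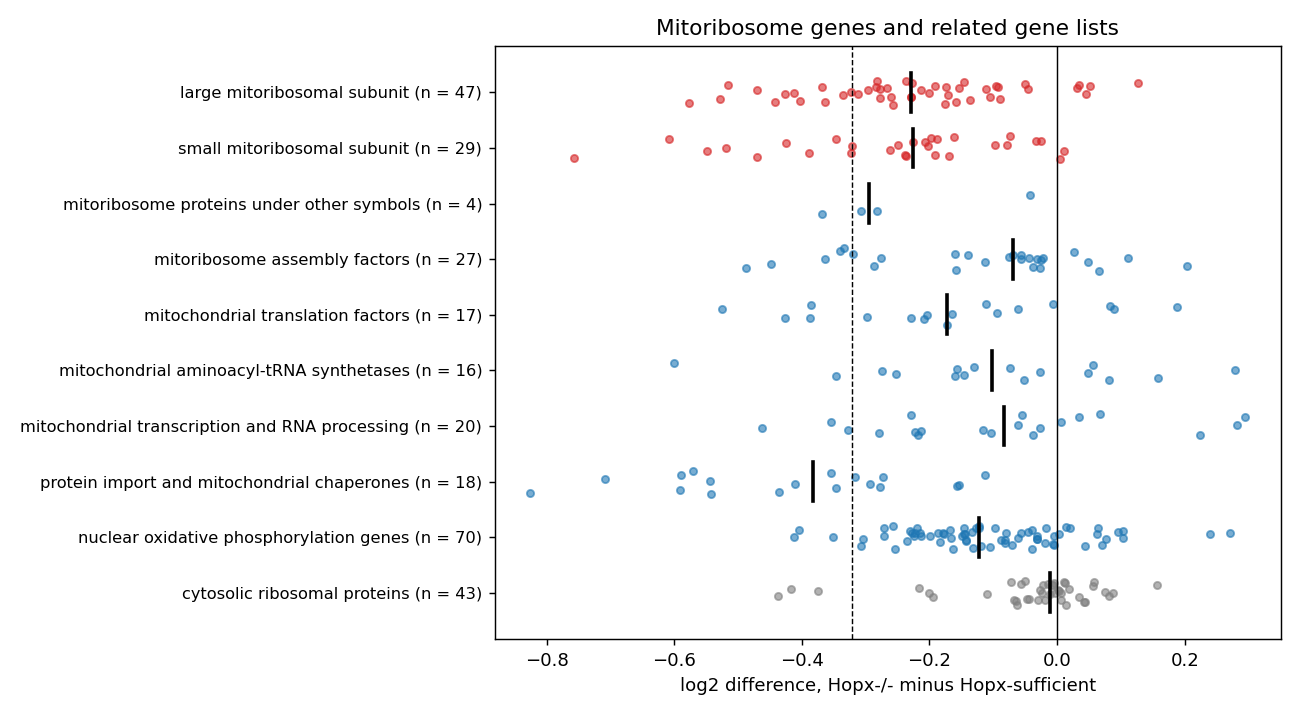
Log2 difference, Hopx-/- minus Hopx-sufficient, of every measured gene in each list, 1 point per gene with vertical scatter for legibility; black bars are medians, the solid line marks 0 and the dashed line a signal 20% lower. The medians are -0.23 for both subunits of the mitochondrial ribosome (red), -0.38 for import and chaperones, -0.12 for oxidative phosphorylation (blue) and -0.01 for cytosolic ribosomal proteins (grey).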

How the data were processed

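Biotin-labelled total RNA from 2 sorted T cell populations was hybridised to single-colour arrays, 1 per genotype, and groups follow the sample titles. RNA was isolated with Trizol and QIAGEN clean-up, per the labels' protocols. The authors deposited log2-type values centred for each of 45101 probe sets on the mean of both arrays: the columns are mirror images, with a largest row sum of 1e-06, and run from -2.71 to 2.71. Summarisation, normalization between arrays and log base are not given in the sources used here. Base 2 was assumed, and with natural logs all differences would be 1.44 times larger. The number of arrays limits the precision.

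Gene names came from the platform annotation of 2016. Probe sets with several symbols (932) or none (9160) and 64 control probe sets were left out. Differences were centred on the median of the 34945 single-symbol probe sets (0.0075 before centring) and averaged per gene, without a filter or a test. Alternatives were no centring, other summaries of probe sets, removal of probe sets by suffix or with the finest steps (1 of the members' probe sets), natural logs, other lines of size, subunits by structure and added ribosome proteins. Splitting members by their number of probe sets and removal of all probe sets with fine steps were chosen after seeing the data. Members named are the 10 lowest, the 5 highest, those at least 1.5-fold apart, those with 3 or more probe sets or probe sets more than 0.5 apart, those next to the 20% line and some picked for known roles. Of each related list the 2 lowest and the highest are named. Other names were chosen after their values were seen. The members and lists were chosen with earlier results of these data known. The summary step was tested on simulated data with a planted shift. Python 3.11.15, numpy 2.4.6, pandas 2.3.3 and matplotlib 3.10.9 were used.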

Additional observations from a re-analysis of the deposited data

Results flagged for a closer look

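A probe set annotated to both Ccdc142 and Mrpl53, and therefore outside the 76 genes, differed by -0.34 (Hopx-/- minus Hopx-sufficient, log2), past the line of a signal 20% lower. It was picked out because it carries a signal in data that the gene values do not use, and which of the 2 genes it reads cannot be told apart.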

How the results depend on the processing

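With 1 array per genotype no array could be left out, and no value has a replicate error. No paired analysis was possible because there was a single array of either genotype. The median over all members lay between -0.34 and -0.19 under the alternatives tried, the median of large-subunit genes between -0.35 and -0.20 and that of small-subunit genes between -0.33 and -0.19. Between 68 and 70 of the 76 members were below 0 under each alternative that kept all of them. Without probe sets of suffix _x_at, _s_at or _a_at (14, 9 and 31 of the members' probe sets), 56 of 62 were. The count of members at least 20% lower was 21 as reported and moved by over 1.5 times in these cases: it was 43 with the probe set furthest from 0 standing for each gene, where 12.6% of all genes passed the line, and 40 with natural logs, where 13.0% of all genes did. At a line of 1.1-fold 56 members were lower (22.8% of all genes), at 1.5-fold 2 (1.31%) and at 2-fold 0 (0.143%). Without any probe set with fine steps, an alternative chosen after seeing the data, 70 of 76 members were below 0, the median was -0.24 and 27 were at least 20% lower, against 7.76% of all genes. Named members kept their value within the SD between probe sets in 268 of 288 recalculations, and 20 moved further. No member at least 20% apart changed sign. Some nearer 0 did, among them Mrps14, from -0.03 to 0.31 with the probe set furthest from 0. Mrpl17 went from -0.09 to 0.07 without probe sets of suffix _x_at, _s_at or _a_at. All 20 moves came with the probe set furthest from 0 or with natural logs. Other alternatives could hardly move a value, and a member with 1 probe set keeps it under every summary. The share that stayed is therefore no measure of robustness.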

Other observations

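Regulators of mitochondrial biogenesis gave mixed values. Of 9 measured, 6 were below 0, with a median of -0.09. Pprc1, a coactivator related to PGC-1, stood at -0.45 and Gabpb1, the partner subunit of the ETS factor GABPA, at -0.44 with both of its probe sets within 0.01 of each other. Gabpa itself differed by -0.10, Myc by -0.09 and Yy1 by -0.04. Nrf1 was highest, at 0.16, with all 4 probe sets above 0.

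Other probe sets with several symbols that include a ribosome gene gave -0.29 in both that carry Mrpl30 and Gm6238, and 0.10 in the one that carries Mrps34 and Nme3.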
